A study of Mus musculus with 22 samples.

Results

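Gene expression in livers of adult mice with an induced deletion of Tcf7l2 was compared between fasted and fed animals. Tcf7l2 encodes TCF4, a DNA-binding partner of beta-catenin in Wnt signalling. The comparison used the 7 of the series' 22 arrays that the titles name as knockout adult liver, 4 from fasted mice and 3 from fed mice, with 1 mouse per array. All were C57BL/6 mice whose Tcf7l2 alleles were flanked by loxP sites and which carried SA-CreERT2, a Cre recombinase that tamoxifen activates. The labels spell out neither the SA driver nor the exon that is removed. Control mice, used only where they are named, had the same loxP alleles without the Cre, and 4 were fasted and 3 fed. Knockout and control mice alike received tamoxifen at 3 weeks of age. After a further 1 to 2 months they went without food for 24 hours or had food freely available. Ddx3y and Eif2s3y, genes of the Y chromosome, were well above background on 14 of 14 adult arrays. Kdm5d, another Y gene, was so on 8 of 14, and Xist, of the X chromosome, on 1 of 14.

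A fasting liver turns from storing energy to releasing it. Falling insulin lowers the activity of SREBP1, the transcription factor that drives fatty acid synthesis, while fatty acids arriving from fat tissue activate PPARA, which induces the enzymes of fatty acid oxidation and ketone production. Glucagon and glucocorticoids raise glucose production from glycerol, lactate and amino acids. Sterol synthesis is held in step with supply by SREBP2 and by the INSIG proteins, which keep both SREBPs in the endoplasmic reticulum.

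Each array carried liver RNA in the green dye and one commercial mouse reference RNA in the red dye, and the value of a gene is the log2 ratio of liver over reference. No dyes were swapped. A gene was tested where its brightest probe stood well above background in the liver channel on at least 3 of the 14 adult arrays, which left 17184 genes. The fit over all 4 adult groups found 6136 of them, or 35.7%, past an adjusted p of 0.05 between fasted and fed knockout livers (limma, Benjamini-Hochberg). Of these, 3212 (18.7% of all genes) were higher and 2924 (17.0%) lower when fasted, and 1309 changed at least 2-fold. The split moved with the measure: it was 7205 higher and 1881 lower with the scanner software's processed signals, and 3277 higher and 1887 lower in the liver channel taken alone.

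Feeding state could not be told apart from slide and scan day. The fasted arrays lay on slides 3 and 4 and were scanned on a different day from the fed arrays on slides 5 and 6, so no value within a slide or day could be had. The reference RNA, the same on every array, itself differed between the fasted and fed knockout arrays for 9527 genes, or 55.4% of those tested, with a median absolute change of 0.40 on the log2 scale. Liver spots well above background made up 53.9% to 62% of spots on the fasted knockout arrays and 22.8% to 31.2% on the fed ones. For these reasons a gene is called here as risen or fallen only where the ratio and the liver channel alone both passed an adjusted p of 0.05 in the same direction. This held for 1955 genes, 11.4% of those tested: 1189 rose (6.92%) and 766 fell (4.46%). Among them, 873 stood above background on no fed knockout array, and 734 of those 873 rose. In 1848 of the 6136 genes called in the ratio, the liver channel alone lay on the other side of 0.

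**Figure D1:**
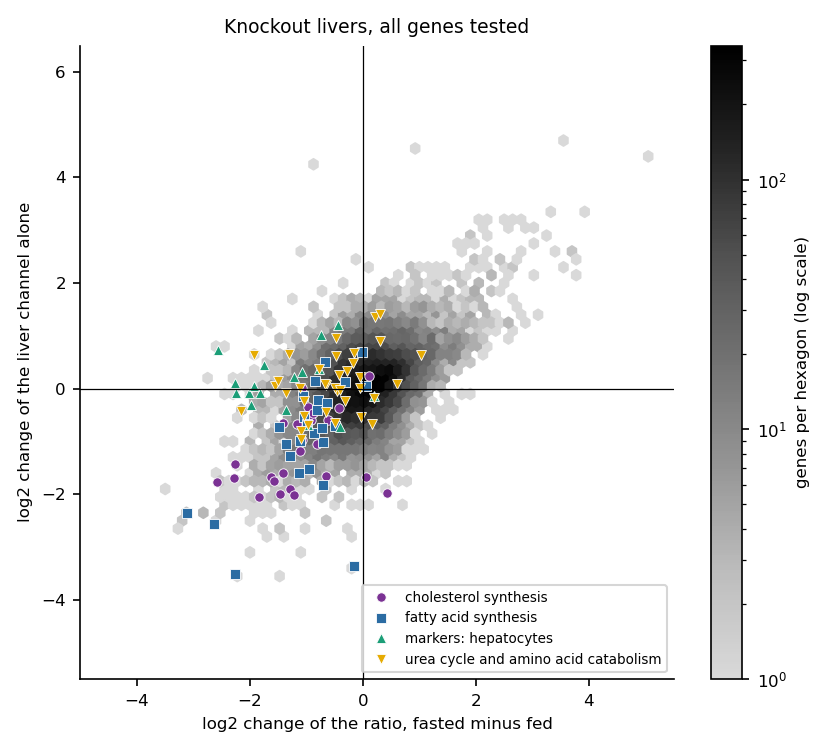
Change of each of 17184 genes between fasted and fed knockout livers, as log2 change of the ratio of liver over reference (horizontal) and of the liver channel alone (vertical); hexagons count genes on a log scale and coloured symbols mark 4 gene lists. Genes of cholesterol synthesis and fatty acid synthesis lie mostly below 0 on both axes, while hepatocyte markers lie left of 0 on the horizontal axis and on both sides of 0 on the vertical axis, with medians of -1.37 and 0.05.

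The probes of the targeted gene gave no check of the genotype labels. Tcf7l2, read by its brightest probe at chr19:56007586-56007645 (mm9), stood at 0.63, -0.15, 0.22 and 0.57 in fasted knockout livers and at 0.01, -0.35 and -0.13 in fed ones. The fasted and fed ranges overlapped, and the change of 0.47 ± 0.19 (SE) did not pass (adjusted p = 0.0641). None of its 3 probes was lower in knockout than in control adult livers beyond the overlap of the arrays. Direct Wnt target genes did differ with the labelled genotype: the median log2 ratio of 15 such genes lay between -0.40 and 0.06 on the 7 knockout arrays and between 1.06 and 2.22 on the 7 control arrays, without overlap. Among them Glul averaged 1.60 in fasted knockout and 4.54 in fasted control livers.

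The largest rises included the metallothioneins Mt2 and Mt1, small zinc-binding proteins, and the PPARA targets Acot3, Acot4 and Cidec. Among them too were the signalling genes Socs2, Arhgef26, Rapgef4 and Rgs16, and the transcription factor gene Maff. Mt2 read 0.49, 1.45, 0.24 and -3.31 on the 4 fasted arrays and -4.81, -5.42 and -5.79 on the 3 fed arrays, a change of 5.06 ± 0.89 (SE), or 33.3-fold (adjusted p = 0.000961). Fasted arrays 1 to 3 were far above every fed array, and fasted array 4 lay between. Mt1 had the same order, at 0.07, 0.9, -0.11 and -2.65 fasted against -3.44, -3.74 and -3.98 fed, a 9.66-fold rise (adjusted p = 0.0022). The liver channel alone rose by 4.42 for Mt2 and by 3.36 for Mt1, and the reference channel moved by -0.79 and -0.06.

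Arhgef26, which encodes an exchange factor for small GTPases, gave the tightest of the large rises. It read 5.39, 5.41, 5.64 and 5.46 fasted against 2.71, 2.41 and 2.39 fed, a change of 2.97 ± 0.24 (7.85-fold, adjusted p = 4.37e-06). A second probe for the gene changed by 2.18. At the brightest probe the liver channel alone rose by 2.73, and the reference channel itself rose by 1.07. Rapgef4, an exchange factor that responds to cyclic AMP, read 3.8, 3.94, 5.33 and 4.86 fasted and 2.16, 1.16 and 1.79 fed. No fed spot was well above background, and the bound described under processing was 4.52-fold. The liver channel alone rose by 1.53 on the log2 scale, less than that bound, and the reference channel changed by 0.62. Lor, known as a skin cornified-envelope protein, read 5.19, 5.78, 4.41 and 4.11 fasted and 1.36, 1.3 and 0.95 fed, with a bound of 7.94-fold. Its liver channel alone rose by 2.61 on the log2 scale, also less than the bound. Maff, a small MAF transcription factor, read 0.89, 0.35, 0.47 and -0.71 fasted and -3.05, -2.92 and -2.36 fed, an 8.16-fold rise (adjusted p = 0.000587). In each of these genes all 4 fasted arrays lay above all 3 fed arrays.

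Some of the large rises were uneven among the fasted mice. Socs2, an inhibitor of growth hormone signalling, read 3.29, 2.87 and 2.95 on fasted arrays 1 to 3 and 0.51 on array 4, against -0.41, -1.67 and 0.09 fed (3.07 ± 0.69, adjusted p = 0.00465). Cidec, a lipid droplet protein, read 7.06, 7.27 and 7.19 on fasted arrays 1 to 3 and 3.84 on array 4, against 3.43, 2.88 and 2.47 fed (3.41 ± 0.81, adjusted p = 0.00595). In both genes array 4 lay just above the fed range. Leaving out the fasted knockout arrays of slide 3 ended both calls (adjusted p = 0.0509 for Socs2 and 0.0648 for Cidec), as did leaving out the fed ones of slide 5 (0.127 and 0.05). Hspa1a, an inducible heat shock protein, was carried mostly by fasted array 2, at 4.22 against 0.87, 0.77 and 0.51 on the others and -1.42, -1.3 and -1.04 fed, a rise of at least 4.88-fold whose call was lost without slide 5 (adjusted p = 0.156). Rgs16, a regulator of G-protein signalling, read 4.06, 3.87, 4.2 and 4.45 fasted and 1.1, 1.46 and 1.72 fed, a 6.57-fold rise. Its call (adjusted p = 0.029) was lost in 5 of the 14 fits that left out an array and in all 4 that left out the knockout arrays of a slide, with adjusted p from 0.0536 to 0.234.

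**Figure D2:**
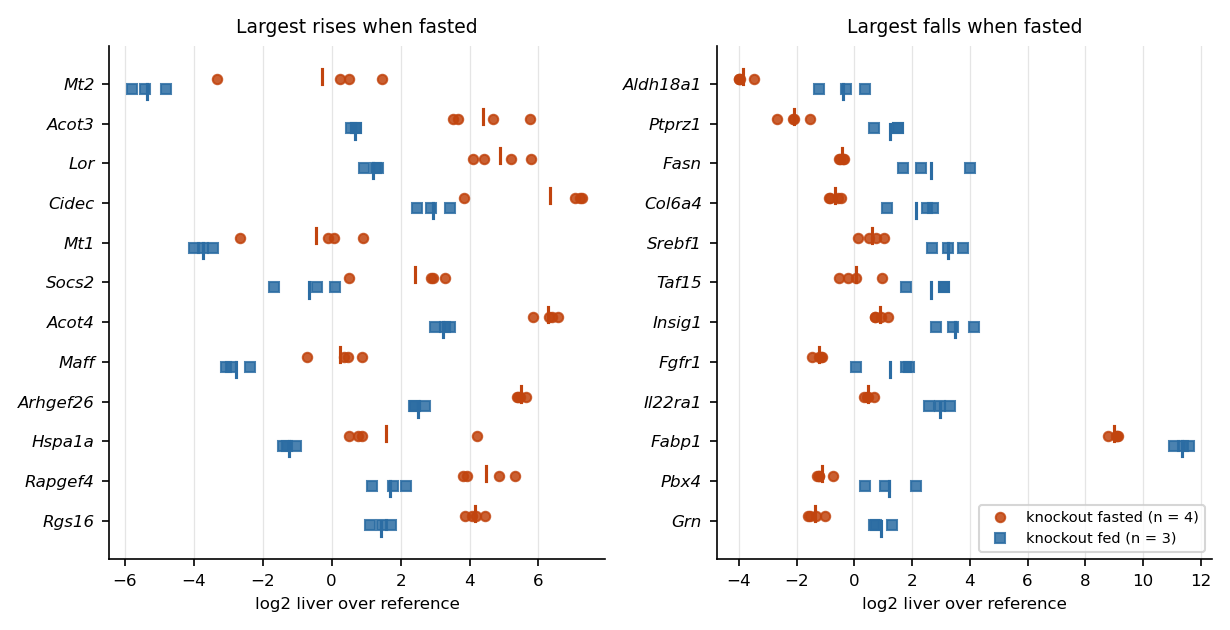
Log2 ratio of liver over reference on each knockout array for the 12 genes with the largest rise and the 12 with the largest fall (circles, 4 fasted; squares, 3 fed; short lines, group means). The ranges of the groups do not overlap in any of the 24 genes, which the rule for naming them required; fasted array 4 is the low circle in Mt2, Mt1, Cidec and Socs2.

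The largest falls included Fasn, Srebf1 and Insig1, which belong to lipid synthesis, and Fabp1, the fatty acid binding protein of hepatocytes. Aldh18a1, the first enzyme of proline synthesis from glutamate, had the largest fall of the ratio. It read -3.48, -3.99, -3.97 and -3.99 fasted and -1.21, -0.3 and 0.36 fed, an 11.1-fold difference (-3.48 ± 0.28, adjusted p = 5.17e-06). Its liver channel alone changed by -1.97, less than that of Ptprz1 (-2.63), and its reference channel by 1.15. Of the 3 fed arrays, 2 were well above background for it. The fasted arrays agreed closely, and the fed arrays spread over more than 1 log2 unit. Fabp1 read 9.14, 8.77, 9.05 and 9.1 fasted and 11.61, 11.39 and 11.08 fed, a change of -2.34 ± 0.19 in the ratio and of -1.06 in the liver channel alone. Il22ra1, a subunit of the interleukin-22 receptor, read 0.48, 0.67, 0.32 and 0.45 fasted against 3.3, 2.58 and 2.98 fed, a change of -2.48 ± 0.15 (adjusted p = 6.93e-07). Ptprz1, a receptor tyrosine phosphatase, fell 10.1-fold (-3.33 ± 0.61), and Taf15, an RNA-binding protein, fell 6.07-fold (-2.60 ± 0.37). Ptprz1 had no second tested probe. Its mean log2 liver signal was 15.53 fasted and 18.15 fed, above that of Fasn (14.92 and 17.53). Whether the probe reads Ptprz1 itself was not tested. For Taf15 the liver channel alone changed by -1.55 and the reference channel by 0.98. Of the rest, 4 had another probe that did not share the fall: Col6a4 (-2.80 against 0.55), Pbx4 (-2.31 against 0.12), Grn (-2.29 against 0.10) and Fgfr1 (-2.50 against -1.07, -0.41 and 0.33), so that the falls of Col6a4, Pbx4 and Grn were seen at the brightest probe only, and the 4 probes of Fgfr1 differed in size and sign. For Fgfr1, further, no fed spot was well above background, and the liver channel changed by -0.96 beside 1.57 in the reference channel.

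Genes of cholesterol synthesis were the list with the most falls. Of 25 members tested, 13 fell and 0 rose, so that 52% were called beside 11.4% of all genes, and the median change was -1.12 in the ratio and -1.43 in the liver channel alone, beside 0.04 and 0.07 over all genes tested. The reference channel's median for these genes was -0.19. Insig1, which retains SREBPs in the endoplasmic reticulum, read 1.17, 0.93, 0.72 and 0.73 fasted and 2.84, 3.41 and 4.15 fed, a 5.98-fold fall (-2.58 ± 0.27, adjusted p = 3.12e-05), with -1.26 at its other probe. Nsdhl, a sterol C4-demethylation enzyme, read -0.21, -0.38, 0.05 and -0.28 fasted and 2, 1.69 and 2.56 fed (-2.29 ± 0.23). Fdps, which makes farnesyl diphosphate, read -0.51, -0.7, -0.08 and -0.86 fasted and 1.48, 1.05 and 2.67 fed (-2.27 ± 0.33). All fasted arrays lay below all fed arrays in these 3 genes. Knockout fed array 3 was the highest of the fed arrays in each of them.

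The falls covered mevalonate steps, later sterol steps and regulators. Of the mevalonate steps, Mvk changed by -1.41 ± 0.19, Pmvk by -1.42, Mvd by -1.29 and Idi1 by -1.62 ± 0.40, and all 4 fell. Of the later, sterol-forming steps, Lss (-1.46 ± 0.29), Msmo1 (-1.84 ± 0.40), Sc5d (-1.12) and Dhcr7 (-1.22) fell. Among the regulators Srebf2, which encodes SREBP2, read -1.86, -1.83, -1.73 and -2 fasted and -0.82, -1.04 and -0.51 fed (-1.07 ± 0.18, adjusted p = 0.000774). Hmgcs1, a synthase at the entry of the pathway (-0.82, adjusted p = 0.126), and Sqle, squalene epoxidase (-0.92, 0.198), did not pass. In Ebp the ratio and the liver channel opposed each other, at 0.43 in the ratio, -1.98 in the liver channel and -2.54 in the reference channel.

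Fatty acid synthesis genes that passed also fell. Of 26 members tested, 8 (30.8%, beside 11.4% called over all genes) fell and 0 rose. By the ratio without regard to the liver channel, 17 were lower. The median change was -0.85 in the ratio, -0.73 in the liver channel and 0.01 in the reference channel. Fasn, the fatty acid synthase itself, read -0.38, -0.53, -0.51 and -0.36 fasted and 1.67, 2.32 and 4.02 fed, an 8.66-fold fall (-3.11 ± 0.42, adjusted p = 0.000174), with -2.63 at its other probe. The fasted mice were nearly equal and fed mouse 3 stood above the other fed mice. Srebf1, which encodes SREBP1, read 0.51, 0.76, 0.12 and 1.04 fasted and 2.68, 3.26 and 3.76 fed (-2.63 ± 0.26, adjusted p = 2.19e-05), and its liver channel fell by 2.56 while the reference channel moved by -0.13. Mid1ip1, which helps acetyl-CoA carboxylase to polymerise, read 0.22, -0.78, 0.02 and 0.06 fasted and 1.58, 2.17 and 2.7 fed (-2.27 ± 0.31).

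The enzymes that supply acetyl-CoA also fell: Acly, ATP citrate lyase, by 1.37 ± 0.24 and Acss2, an acetyl-CoA synthetase, by 1.12 ± 0.11 on the log2 scale. Gpam, which starts glycerolipid synthesis (-1.29 ± 0.40), and Tkt, transketolase of the pentose phosphate pathway (-0.99), fell as well. The call for Gpam was lost in 7 of 31 alternative fits, 2 of which left out an array. Without fed knockout array 3 its adjusted p was 0.107. Pnpla5, a lipase gene, fell by 0.72 in the ratio but stood at 1.45 with the processed signals. Scd1, the stearoyl-CoA desaturase, read 4.4, 4.06, 3.82 and 3.75 fasted and 5.48, 5.51 and 5.48 fed (-1.48 ± 0.27, adjusted p = 0.00109), without a pass in the liver channel (-0.72, adjusted p = 0.31). Acaca, acetyl-CoA carboxylase, was -0.67 in the ratio, 0.50 in the liver channel and 1.53 in the reference channel. In Thrsp, a lipogenic nuclear protein, the ratio changed by -0.15 (adjusted p = 0.394) while the liver channel changed by -3.36 and the reference channel by -3.39.

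**Figure D3:**
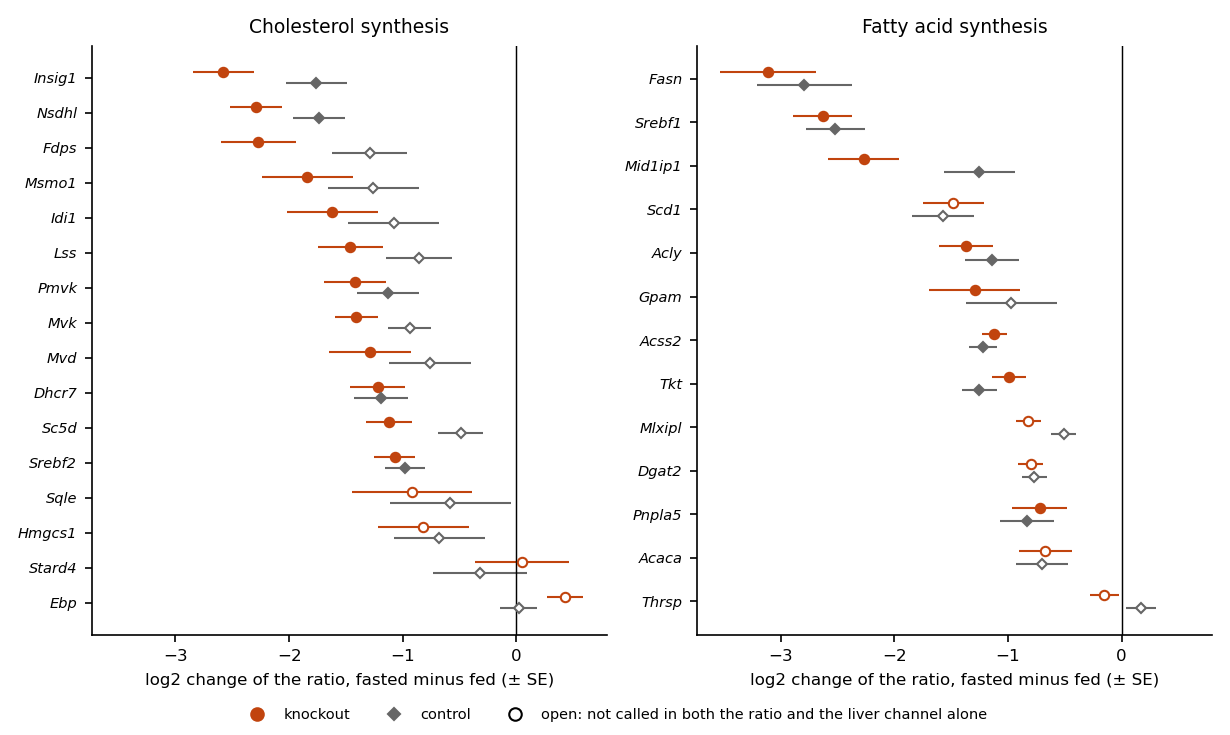
Log2 change of the ratio between fasted and fed livers (± SE) for 16 of the 25 cholesterol synthesis genes and 13 of the 26 fatty acid synthesis genes tested, in knockout (circles, n = 4 fasted and 3 fed) and control (diamonds, n = 4 and 3). Filled circles, called in the ratio and in the liver channel alone, lie below 0 in every case; Stard4 sits near 0 with an open symbol.

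Promoters are shown for a member of each lipid list, as RefSeq gives them for build GRCm38.p6, from 250 bases before to 50 after the annotated start. Insig1 and Fasn stand for the lists that fell, and Acot3, a PPARA target described next, for the list with most rises. Capitals mark matches to any of 6 motifs searched on both strands, and where 2 matches overlap they form a single run of capitals. The Insig1 promoter lies at chr5:28071162-28071461 (plus strand), that of Fasn at chr11:120824498-120824797 (minus strand) and that of Acot3 at chr12:84051894-84052193 (plus strand, the first of 2 entries).
Insig1: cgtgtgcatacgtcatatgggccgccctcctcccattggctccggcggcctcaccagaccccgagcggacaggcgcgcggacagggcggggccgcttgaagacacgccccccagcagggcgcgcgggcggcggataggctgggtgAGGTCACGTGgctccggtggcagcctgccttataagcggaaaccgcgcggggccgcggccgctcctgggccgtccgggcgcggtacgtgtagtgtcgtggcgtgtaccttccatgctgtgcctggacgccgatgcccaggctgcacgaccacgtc
Fasn: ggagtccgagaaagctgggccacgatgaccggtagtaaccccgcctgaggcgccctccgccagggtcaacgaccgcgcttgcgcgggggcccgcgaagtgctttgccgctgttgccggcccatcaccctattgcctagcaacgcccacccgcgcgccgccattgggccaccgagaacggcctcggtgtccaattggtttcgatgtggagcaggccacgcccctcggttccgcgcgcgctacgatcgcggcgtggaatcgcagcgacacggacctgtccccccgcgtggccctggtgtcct
Acot3: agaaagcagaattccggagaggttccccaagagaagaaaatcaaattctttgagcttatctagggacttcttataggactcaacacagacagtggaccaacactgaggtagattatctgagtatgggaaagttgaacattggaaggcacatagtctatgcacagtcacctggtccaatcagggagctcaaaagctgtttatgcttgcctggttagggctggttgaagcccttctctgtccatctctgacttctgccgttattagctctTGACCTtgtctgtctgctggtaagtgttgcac
The Insig1 promoter holds AGGTCA, the single nuclear receptor motif, at positions -105 to -100 from the start, and CACGTG, the E-box, at -101 to -96. The Acot3 promoter holds TGACCT, the same motif on the other strand, at positions 18 to 23, and the Fasn promoter holds none of the motifs. Among all 32851 RefSeq promoters of this length, 16.3% hold AGGTCA or TGACCT and 7.15% hold CACGTG. The AGGTCA motif was found in 2 of 11 promoters of the cholesterol synthesis genes called, 1 of 8 of the fatty acid synthesis genes and 3 of 7 of the other PPARA targets, and the E-box in 2, 1 and 1 of them. The direct repeat of AGGTCA with 1 base between its copies (0.0396% of all promoters), the forkhead motif GTAAACA (3.65%), the sterol element TCACNCCAC (1.24%) and the cyclic AMP element TGACGTCA (1.79%) were found in 0 of these promoters.

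PPARA targets outside the oxidation pathways moved in both directions. Of 25 members tested, 6 rose and 3 fell (36% called, beside 11.4% of all genes), with a median change of 0.09 in the ratio and 0.55 in the liver channel. The risen genes were Acot3, Acot4, Cidec, Vnn1, Angptl4 and Hsdl2. Acot3, a peroxisomal acyl-CoA thioesterase, read 5.76, 3.51, 4.67 and 3.67 fasted and 0.72, 0.57 and 0.71 fed, with no fed spot well above background, so that its rise is at least 3.83-fold. Acot4, the neighbouring gene for a thioesterase of dicarboxylic acids, read 6.58, 6.31, 6.39 and 5.85 fasted and 3.42, 3.28 and 2.99 fed, an 8.31-fold rise of the ratio (3.06 ± 0.38, adjusted p = 0.000107), with 1.90 at its other probe. For Acot4 the liver channel alone rose by 1.43, less than the ratio, and the reference channel changed by 0.12. The Acot genes of this cluster are similar in sequence, and cross-hybridisation between them cannot be told apart from these values.

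Vnn1, the pantetheinase vanin, read 3, 2.77, 4.62 and 3.44 fasted and 1.46, 2.38 and 0.23 fed (2.10 ± 0.48, adjusted p = 0.0051). Angptl4, a secreted inhibitor of lipoprotein lipase, read 2.27, 2.9, 3.29 and 2.95 fasted and 1.88, 0.69 and 1.81 fed (1.39 ± 0.30, adjusted p = 0.00346), and its call was lost without slide 5 (adjusted p = 0.0572). Hsdl2 rose by 0.74 ± 0.11. Leaving out knockout arrays reduced the count of 6 risen members to 3 without fasted array 3, fed array 1 or fed array 2, to 2 without fed array 3 and to 1 without both fed arrays of slide 5. The fallen members were Fabp1, Acsl3 (-0.94) and G0s2, an inhibitor of triglyceride lipolysis. G0s2 was split among the fasted mice, at 0.22 and 0.18 on arrays 1 and 2 and 3.47 and 2.75 on arrays 3 and 4, against 3.9, 3.78 and 3.16 fed (-1.96 ± 0.64, adjusted p = 0.0309). Without the fasted arrays of slide 3 its change was -0.50 (adjusted p = 0.149). Pdk4, which restrains pyruvate oxidation, and Fgf21, the fasting hormone, did not pass: Pdk4 read 1.01, 1.15, 2.62 and 0.9 fasted and 0.25, 0.24 and -0.07 fed (1.28 ± 0.48, adjusted p = 0.0506), and Fgf21 read 0.9, 0.61, 2.96 and -0.05 fasted and 1.01, 0.15 and 0.57 fed (0.53, adjusted p = 0.454).

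Among peroxisomal and microsomal oxidation genes 5 of 21 rose and 2 fell (33.3% called, beside 11.4% of all genes). The list's median was -0.22 in the ratio, 0.99 in the liver channel and 0.57 in the reference channel. The rises were led by Cyp4a14 and Cyp4a10, omega-hydroxylases of fatty acids. Cyp4a14 read 8, 7.43, 8.15 and 8.09 fasted and 5.28, 6.54 and 5.75 fed, a 4.17-fold rise (2.06 ± 0.26, adjusted p = 0.000111). Cyp4a10 read 7.33, 6.21, 7.86 and 7.14 fasted and 5.51, 5.6 and 4.53 fed (1.92 ± 0.33, adjusted p = 0.000852). Fasted arrays lay above fed arrays in both. Cyp4a31 (1.95 ± 0.47, at least 1.06-fold because no fed spot was well above background), Cyp4a12b (0.84, but -0.03 with the processed signals) and Eci2, an enoyl-CoA isomerase (0.81 ± 0.15), rose too. The Cyp4a genes are near-identical in stretches, so which member a probe reads is uncertain. Cyp4f14 fell by 1.11 ± 0.15 and Abcd2, a peroxisomal fatty acid transporter above background on 2 fasted and 0 fed arrays, by 0.89, but stood at 0.24 with the processed signals.

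In mitochondrial fatty acid oxidation 5 of 24 members rose and 2 fell (29.2% called, beside 11.4% of all genes). The medians were 0.02 in the ratio, 0.54 in the liver channel and 0.38 in the reference channel. Decr1, the dienoyl-CoA reductase needed for unsaturated fatty acids, read 3.82, 4.24, 4.6 and 4.29 fasted and 2.94, 2.92 and 2.32 fed (1.52 ± 0.24, adjusted p = 0.000524). The carnitine transporter Slc22a5 rose by 0.99 ± 0.17 and Etfdh, which passes electrons to the respiratory chain, by 0.83 ± 0.14. Acadl, an acyl-CoA dehydrogenase, rose by 0.51 and the carnitine carrier Slc25a20 by 0.47. The call for Acadl (adjusted p = 0.0279) was lost in 8 of 32 alternative fits, 3 of which left out an array. That for Slc25a20 (adjusted p = 0.0137) was lost in 4 of 32, 1 of which left out an array. Cpt1a, the gate for entry of long-chain fatty acids, read 2.43, 2.27, 2.93 and 2.6 fasted and 2.55, 2.44 and 2.18 fed, an overlap with a change of 0.17 (adjusted p = 0.45). Its liver channel alone changed by 1.54 and its reference channel by 0.96. Of 7 ketogenesis genes 0 were called, with medians of 0.06 in the ratio, 0.39 in the liver channel and -0.12 in the reference channel.

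**Figure D4:**
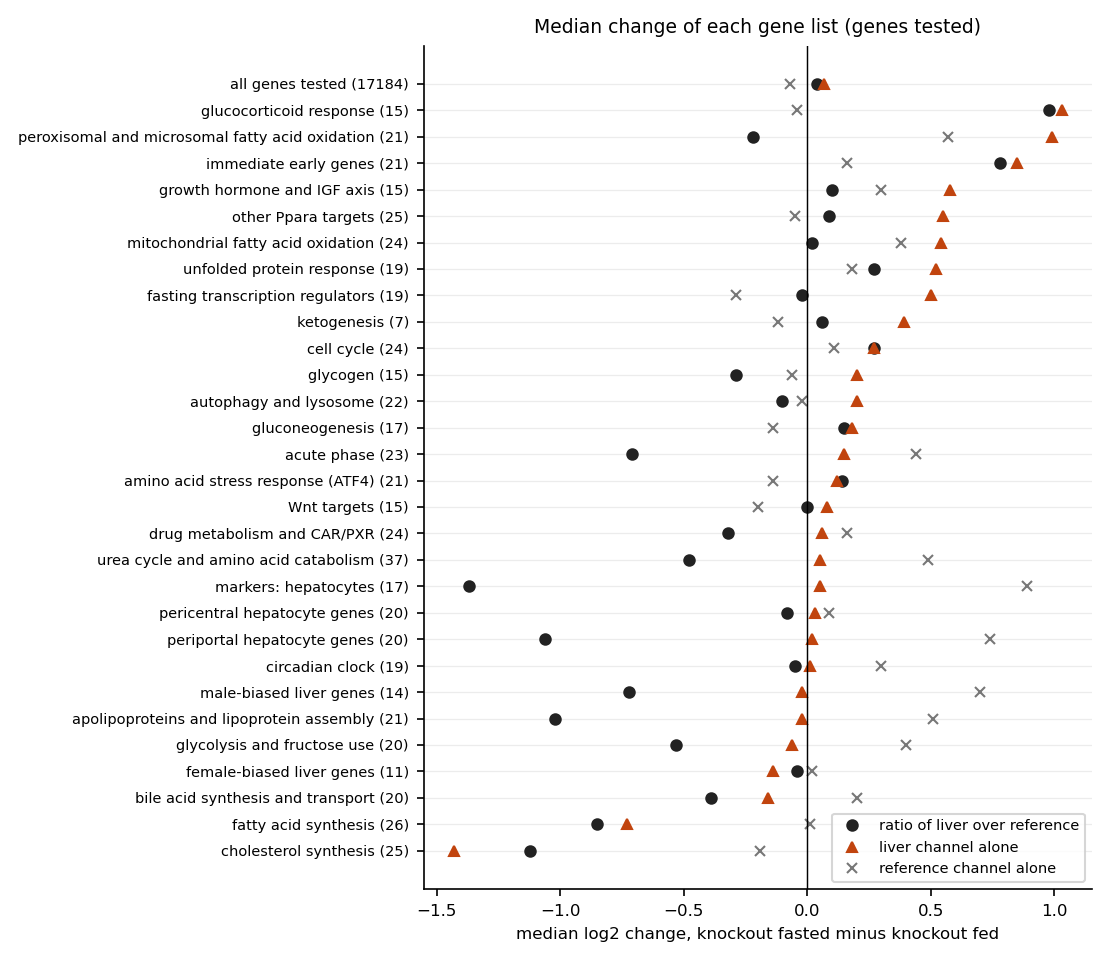
Median log2 change between fasted and fed knockout livers of gene lists, in the ratio (circles), the liver channel alone (triangles) and the reference channel alone (crosses). The number of genes tested is in brackets and all genes tested are at the top. Of the cell type marker lists, only hepatocytes are shown. Cholesterol and fatty acid synthesis are the lists with both the ratio and the liver channel well below 0; in hepatocyte markers the ratio lies at -1.37 while the liver channel lies at 0.05 and the reference channel at 0.89.

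Glucose production genes gave few calls, 5.88% of those tested beside 11.4% of all genes. Of 17 tested, 1 rose, which was Gk, the glycerol kinase that brings glycerol into the pathway. It read 3.32, 3.18, 3.08 and 2.64 fasted and 2.35, 2.3 and 2.22 fed (0.77 ± 0.16, adjusted p = 0.00268). G6pc, the glucose-6-phosphatase, was -1.09 ± 0.11 in the ratio and -0.84 in the liver channel (adjusted p = 0.204), and Fbp1, fructose-1,6-bisphosphatase, was -1.82 in the ratio and 0.03 in the liver channel. Lpin1, a phosphatidate phosphatase and coactivator, read 2.61, 2.96, 4.39 and 5.03 fasted and 1.01, 1.37 and 2.66 fed, and passed in the ratio (2.06, adjusted p = 0.044) but not in the liver channel (1.93, adjusted p = 0.0953). Ppargc1a, the coactivator PGC-1alpha, changed by 0.79 (adjusted p = 0.0739). Of 19 transcription regulators of fasting 1 rose (5.26%, beside 11.4% called over all genes). This was Cebpd, a C/EBP transcription factor, which read -0.55, -0.2, -0.48 and -0.85 fasted and -2.69, -3.1 and -2.53 fed, a 4.76-fold rise (2.25 ± 0.26, adjusted p = 5.62e-05).

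Of 20 genes of glycolysis and fructose use, 12 were lower in the ratio, but 2 fell and 1 rose in both measures (15%, beside 11.4% of all genes). The liver channel's median was -0.06. Tpi1, triosephosphate isomerase, fell by 1.07 in the ratio and 0.44 in the liver channel, and the reference channel changed by 0.44. Pfkfb3, which makes the activator fructose-2,6-bisphosphate, read 0.66, 0.93, 1.42 and 1.89 fasted and -1.18, -1.33 and -0.77 fed, a 4.98-fold rise (2.32 ± 0.41, adjusted p = 0.000958). All fasted arrays lay above all fed arrays. Of 15 glycogen genes 0 were called, with 4 higher and 3 lower in the ratio alone.

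Genes known to respond to glucocorticoids gave 5 rises and 0 falls among 15 tested (33.3% called, beside 11.4% of all genes). In the ratio alone 6 were higher and 3 lower. The median change was 0.98 in the ratio and 1.03 in the liver channel. By array the median log2 ratio was 0.33, 1.08, 0.63 and 0.09 fasted and -0.33, -0.22 and 0.17 fed, so that fasted array 4 lay within the fed range. Besides Mt1 and Mt2 the risen genes were Fkbp5, Gadd45b and Cdkn1a. Fkbp5, a co-chaperone of the glucocorticoid receptor, read 0.69, 1.08, 1.83 and 1.77 fasted and -0.28, -0.7 and -0.79 fed, a 3.82-fold rise of the ratio with no fed spot well above background and changes of 1.24 and 3.43 at its other probes. Gadd45b, a stress-induced growth arrest gene, read -2.59, -1.04, -2.46 and -2.64 fasted and -3.76, -3.59 and -3.43 fed, at least 1.8-fold higher. Cdkn1a, the p21 cell cycle inhibitor, read -0.26, -0.45, -1.44 and -1.31 fasted and -1.9, -2.04 and -1.38 fed, so that the groups overlapped at their edges (0.91, adjusted p = 0.0245).

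Immediate early genes, which respond to stimuli within minutes, gave 4 rises and 1 fall among 21 (23.8% called, beside 11.4% of all genes). Atf3, a stress-induced transcription factor, was split among the fasted mice: it read 2.28 and 1.9 on fasted arrays 1 and 2, and -1.21 and -1.68 on arrays 3 and 4, against -2.02, -1.85 and -1.47 fed. Without the fasted arrays of slide 3 its change was 0.33 (adjusted p = 0.329), and its call in the full fit (adjusted p = 0.0492) was lost in 12 of the 14 fits that left out an array. Btg2, an antiproliferative gene, read 0.96, -0.27, -0.63 and -1.62 fasted and -2.51, -2.13 and -1.97 fed (1.81 ± 0.41, with no fed spot well above background), and changed by 0.49 and 0.77 at its other probes. Jun rose by 1.07 ± 0.24 (at least 1.54-fold). Rhob rose by 0.92 ± 0.34 (adjusted p = 0.048), a call that was lost, like that of Atf3, in 12 of the 14 fits that left out an array, and stood at 0.33 without the fasted arrays of slide 3 (adjusted p = 0.384). Klf2 fell at its brightest probe (-1.38 ± 0.28) and stood at 0.77 at its other probe. The median log2 ratio of the 21 genes was -0.8, -1.13, -1.69 and -2.03 on the fasted arrays and -2.35, -2.16 and -1.97 on the fed ones, so that arrays 1 and 2 were set apart from the rest and array 4 lay within the fed range.

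In several of these genes the fasted knockout arrays spread more widely than the fed ones. On the second principal component of all 14 adult arrays, which held 11.2% of the variance, fasted knockout arrays 1 and 2 lay at -39.6 and -36.2, arrays 3 and 4 at -2.8 and 1.8, and the fed knockout arrays between -5.6 and -4.3. The first component, with 47.5%, separated all fasted from all fed arrays. Knockout arrays 1 and 2 shared slide 3 with fasted control arrays 1 and 2, and the other fasted arrays shared slide 4. The fasted controls lay at 17.4 and 10.6 on slide 3 and at 28.6 and 20 on slide 4. Their immediate early genes had medians of -2.35 and -2.12 on slide 3 and -2 and -1.97 on slide 4. Whether the slide or the mice set fasted knockout arrays 1 and 2 apart was not tested. Markers of pancreas and fat were high on fasted arrays 2 and 3, with a median log2 ratio over 9 genes of 3.94 and 4.01 there, 0.71 and 0.13 on arrays 1 and 4, and 0.84 to 1.64 on the fed arrays. Cela3b, a pancreatic elastase, read 6.72 and 6.79 on arrays 2 and 3 and -0.52 and -0.26 on arrays 1 and 4. Neutrophil markers (6 genes) had medians of 1.03 and 2.15 on arrays 1 and 2, 0.48 and 0.17 on arrays 3 and 4 and 0.11 to 0.45 on the fed arrays. The part of these cells in the uneven genes was not tested.

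**Figure D5:**
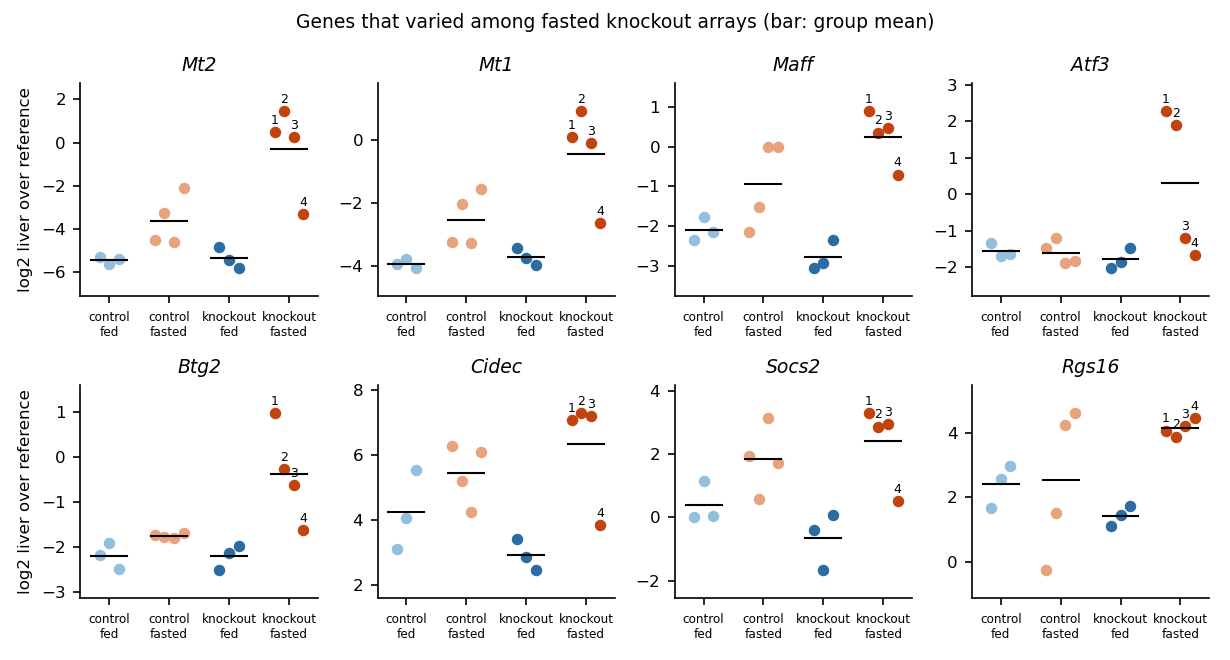
Log2 ratio of liver over reference on each adult array for 8 genes, by genotype and feeding state (bars, group means; fasted knockout arrays numbered 1 to 4). Fasted knockout arrays 1 to 3 lie above array 4 in Mt2, Mt1, Maff, Cidec and Socs2, arrays 1 and 2 lie above arrays 3 and 4 in Atf3, and in Rgs16 the 4 fasted knockout arrays are tight while the fasted controls spread from -0.25 to 4.59.

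Of 20 bile acid genes tested, 3 rose and 1 fell (20% called, beside 11.4% of all genes). Akr1d1, the steroid 5-beta-reductase, read 4.57, 5, 4.79 and 4.84 fasted and 2.15, 2.12 and 2.07 fed, a 6.43-fold rise of the ratio (2.69 ± 0.22, adjusted p = 5.61e-06). Only 1 fed knockout array was well above background for Akr1d1, so the size of its rise is uncertain. Its liver channel alone rose by 1.06 on the log2 scale, less than the ratio, and its reference channel changed by 0.16. Over 30 alternative fits the change of Akr1d1 ranged from 1.06 to 5.62. Cyp8b1, the sterol 12-alpha-hydroxylase that sets the cholic acid share, read 5.61, 5.54, 6.05 and 5.86 fasted and 4.94, 4.09 and 3.53 fed (1.58 ± 0.30, adjusted p = 0.00176). Klb, the beta-Klotho coreceptor for FGF15 and FGF21, rose by 1.07 ± 0.13. Cyp7b1, of the alternative pathway, fell by 1.02 ± 0.18. Cyp7a1, the rate-limiting enzyme of the classical pathway, read 5.4, 4.8, 6.39 and 5.77 fasted and 2.4, 6.15 and 5.94 fed, a spread among fed mice that left its change at 0.76 (adjusted p = 0.503).

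Hepatocyte marker genes were lower in the ratio without a matching change of the liver channel. Of 17 hepatocyte markers, all well above background on all 7 arrays, 15 were lower in the ratio, 2 of them fell in both measures and 0 rose. Their median was -1.37 in the ratio, 0.05 in the liver channel and 0.89 in the reference channel. Alb, serum albumin, read 3.5, 3.54, 3.49 and 3.83 fasted and 5.76, 5.32 and 5.7 fed (-2.01 ± 0.19), while its liver channel changed by -0.08 and its reference channel by 0.85. Amino acid catabolism and the urea cycle had the same form, with 22 of 37 genes lower in the ratio, 2 fallen in both (Prodh, proline dehydrogenase, -1.09 ± 0.13, and Nags, N-acetylglutamate synthase, -0.49 ± 0.13) and a liver channel median of 0.05. Tdo2, tryptophan dioxygenase, read 6.11, 6.09, 6.13 and 6.07 fasted and 8.15, 8.14 and 7.77 fed, a tight difference of -1.92 ± 0.13 in the ratio beside 0.63 in the liver channel and 1.94 in the reference channel. Ass1 (-2.15 and -0.43), Hal (-1.56 and 0.05) and Arg1 (-1.37 and -0.08) likewise had ratio changes that the liver channel did not share. Apolipoproteins (15 of 21 lower in the ratio, 2 fallen in both) and periportal genes (13 of 20, 1 fallen in both) followed them. The shares called in both measures were 11.8% of hepatocyte markers and 5.41% of amino acid and urea cycle genes. They were 9.52% of apolipoproteins and 5% of periportal genes, beside 11.4% of all genes.

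Of 17 endothelial markers of the liver 4 rose: Kdr, the VEGF receptor, read 5.26, 5.45, 5.83 and 5.79 fasted and 4.22, 3.97 and 3.39 fed (1.72 ± 0.18), and Lyve1 (2.30 ± 0.36, at least 1.69-fold, but 0.10 at its other probe), Tie1 (1.46, at least 2.05-fold) and Pecam1 (0.69, at least 1.34-fold) rose with it. The 4 rises were 23.5% of the list, beside 11.4% called over all genes. The ratio alone was higher for 7 of the 17 and lower for 5. The list's median was 0.63 in the ratio and 0.10 in the liver channel, where 9 members lay above 0 and 8 below. Kupffer cell markers gave 1 rise of 17 (5.88%), stellate cell markers 2 of 18 (11.1%) and lymphocyte markers 1 of 17 (5.88%). Bile duct markers gave 1 fall of 10 (10%) and neutrophil markers 2 rises of 6 (33.3%). The share called over all genes was 11.4%. S100a8, a neutrophil granule gene, read 1.17, 2.15, 0.11 and -1.02 fasted and -1.08, -1.06 and -1.83 fed. In RNA of whole liver, fewer cells of a type and less RNA per cell cannot be told apart.

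Direct Wnt target genes had 2 rises among 15 tested (13.3%, near the 11.4% called over all genes). Their medians were 0 in the ratio and 0.08 in the liver channel. Glul, glutamine synthetase, which hepatocytes around the central vein make, read 0.96, 1.44, 2.36 and 1.63 fasted and 0.53, 0.45 and 0.28 fed (1.18 ± 0.33, adjusted p = 0.0148), with 0.36 and 1.77 at its other probes. Its call was lost without slide 4 (adjusted p = 0.111) or slide 5 (0.0954). Igf1, the growth hormone effector, was -0.87 in the ratio and 0.12 in the liver channel. Of 19 clock genes and 24 genes of drug metabolism 0 were called in both measures, with 3 and 11 called in the ratio alone.

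The response was set beside that of control livers, which had their own arrays but lay on the same slides and scan days. The test of the difference between the genotypes called 0 of 17184 genes (0%), in the ratio or in the liver channel alone, with 1132 at an unadjusted p under 0.05 in the ratio. Control livers had 6326 genes called in the ratio and 2505 in both measures, 1544 higher and 961 lower. The difference count was not stable to which arrays were used: it was 136 without fasted knockout arrays 3 and 4 (slide 4), 69 without fed knockout arrays 1 and 2 (slide 5), 12 without fed knockout array 3 and 11 with the processed signals.

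Srebf1, Fasn, Acss2, Insig1 and Mid1ip1 fell in both genotypes. Srebf1 changed by -2.63 in knockout and -2.52 in control livers, a difference of -0.11 ± 0.37. Fasn changed by -3.11 and -2.79 (difference -0.32 ± 0.60), and Acss2 by -1.12 and -1.22. Insig1 changed by -2.58 and -1.76, and Mid1ip1 by -2.27 and -1.25. Cholesterol synthesis had 13 members fallen in knockout and 6 in control livers, with medians of -1.12 and -0.88, and fatty acid synthesis 8 and 7, with medians of -0.85 and -0.79. Acot4 changed by 3.06 and 3.40, Akr1d1 by 2.69 and 3.05, and Decr1 by 1.52 and 1.92.

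Several genes were called in knockout livers and not in control livers, without a difference between genotypes that passed. Cyp4a14 came nearest: its control arrays read 7.82, 7.69, 7.64 and 8.12 fasted and 7.59, 8.06 and 8.02 fed, a change of -0.08, and the difference of 2.14 ± 0.37 had an adjusted p of 0.359. In the ratio the fed knockout livers, at 5.28 to 6.54, lay apart from the other groups. In the liver channel alone Cyp4a14 was higher on fasting in both genotypes, by 3.24 in knockout and 2.77 in control livers (adjusted p = 0.00816 in control). The reference channel of this probe itself changed by 1.61 between the fasted and fed knockout arrays (adjusted p = 0.0279). Mt2 changed by 5.06 in knockout and 1.83 in control livers (difference 3.23 ± 1.26, adjusted p = 0.71), Pfkfb3 by 2.32 and 0.51 (1.81 ± 0.58, 0.669), Maff by 3.03 and 1.16 (1.87 ± 0.70, 0.698) and Vnn1 by 2.10 and 0.69 (1.41 ± 0.68, 0.765). In Rgs16 the fasted controls read -0.25, 1.52, 4.23 and 4.59, a spread that left the difference at 2.60 ± 1.24 (adjusted p = 0.765). Fgf21 ran the other way, at 0.53 in knockout and 2.33 in control livers (-1.80 ± 0.74, adjusted p = 0.737). Glucocorticoid-responsive genes had 5 members risen in knockout and 1 in control livers, and immediate early genes 4 and 0. Genes of the unfolded protein response had 2 risen in knockout livers, Creld2 and Dnajb9, and 10 in control livers, with a median change of 0.27 and 0.61. Sp5, a Wnt target, and Slc13a3, a dicarboxylate transporter, stood above background on 0 of the 7 knockout arrays and changed by 1.96 and 1.60 in the ratio in control livers. The control liver channel changed by 0.37 for Sp5 (adjusted p = 0.346) and 0.72 for Slc13a3 (adjusted p = 0.00886), so that Slc13a3 and not Sp5 was called there in both measures.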

How the data were processed

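Each mouse had 1 Agilent array, on which its liver RNA carried Cy3 and a common reference RNA carried Cy5, per the labels. The deposited scanner files hold each spot's median signal and local background as fluorescence intensity, and processed values as a log10 ratio, per the file headers. Feature Extraction is version 10.5.1.1 per the file headers and 8.5.1.1 per the submitters' processing notes. Probe positions are on mm9, per the file headers.

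Signals were corrected with normexp (offset 50), with local backgrounds marked as outliers replaced by the array median. Log2 ratios were normalized within each array by loess, with control spots at weight 0 and no step between arrays. Spots marked as non-uniform or population outliers were set missing, which left 156 genes without a value on at least 1 array. Spots of a probe were averaged, and the brightest probe stood for a gene. Of 41174 probes, 32846 were named through RefSeq (GRCm38.p6) and 8328 kept the file's name. Genes well above background in the liver channel on at least 3 of 14 adult arrays entered limma 3.58.1 (R 4.3.3) with 4 groups and 10 residual degrees of freedom. Adjusted p-values are Benjamini-Hochberg values over 17184 genes, with a threshold of 0.05. The liver and reference channels alone were normexp-corrected, quantile normalized and fitted alike. A bound of "at least N-fold" compares the bright group with the lowest signal well above background, per array, where no array of the dim group was above background. It is open to dye bias, and is given only where it does not exceed the fold of the ratio. It can exceed the fold of the liver channel alone, as it did for Rapgef4 and Lor. The number of arrays limits the precision. The fit was tested on simulated data.

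Genes were named by rule: Tcf7l2, the 12 largest rises and 12 largest falls called in both measures with group ranges that did not overlap, and up to 4 members of each of 37 lists by adjusted p. Genes named besides these, such as Acly, Mid1ip1, Fdps, Angptl4, Vnn1, Slc22a5, Cyp4a10, Gk, Pfkfb3, Cyp8b1, Alb, Atf3, Thrsp, G0s2, Fgf21 and Cela3b, and the further members of the lists, were chosen after their values were seen. The members and lists were chosen with earlier results of these data known. Of 667 list genes, 13 had no probe by name. Figures were drawn with matplotlib 3.10.9 in Python 3.11.15. The arrays of newborn mice were not used here. Some items are not reported here.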

Additional observations from a re-analysis of the deposited data

Results flagged for a closer look

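Single arrays stood apart from the other 3 of their group, by Dixon's test at the 95% level, in 13 of 253 groups of 4 arrays checked for 128 genes. Chance gives about 1 in 20. Of the 13, 9 were among fasted knockout livers, and fasted knockout array 4 was the array concerned in 5 of them. It was low for Cidec (3.84, the others 7.06 to 7.27), Socs2 (0.51, the others 2.87 to 3.29) and Jun (-1.93, the others -1.21 to -1.13), and high for Alb (3.83, the others 3.49 to 3.54) and Pbx4 (-0.74, the others -1.30 to -1.21). Fasted knockout array 2 was high for Hspa1a (4.22, the others 0.51 to 0.87) and Gadd45b (-1.04, the others -2.64 to -2.46). Fasted knockout array 3 was high for Pdk4 (2.62, the others 0.90 to 1.15), and fasted knockout array 1 for Aldh18a1 (-3.48, the others -3.99 to -3.97). Among the fasted controls, array 3 was low for Pnpla5 (0.09, the others 0.31 to 0.35) and high for Sp5 (5.26, the others 4.02 to 4.14). Fasted control array 4 was low for Scd1 (2.30, the others 3.54 to 3.58) and array 2 for Nudt7 (5.92, the others 6.28 to 6.32).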

How the results depend on the processing

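Of 110 named genes called in the ratio, 42 kept their call and direction in every alternative fitted, the 2-fold minimum apart. Genes called numbered 3335 (1732 higher, 1603 lower) with local backgrounds kept as deposited. The processed signals gave 7205 higher and 1881 lower, and 11 genes differing between genotypes. The liver channel alone gave 1887 lower, and its scaled processed signal 1 gene differing between genotypes, as did the mean of probes. A filter on all 7 knockout arrays, with fewer genes tested, left 3410 called (1452 higher) and 824 called in both measures (312 higher); no filter gave 1313 fallen in both. At least 2-fold changes numbered 1309 in the ratio (613 higher, 696 lower) and 670 in both (348 and 322).

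Without the knockout arrays on slide 3, 1177 genes were called in both (762 higher, 415 lower). Without those on slide 4, 136 differed between genotypes, 8 cholesterol synthesis genes fell and 3 other PPARA targets rose. Without those on slide 5, which leaves 1 fed knockout array assumed to vary like the other groups, 3773 were called (1781 higher), 69 differed between genotypes, 1175 were called in both (605 higher) and 1 PPARA target rose. Without the array on slide 6, fed knockout array 3, 12 differed between genotypes, 1284 were called in both (754 higher), 5 fatty acid synthesis genes fell and 2 PPARA targets rose. Leaving out each array in turn gave 4965 to 6287 called (2574 to 3300 higher, 2391 to 2989 lower), 1284 to 2320 in both (754 to 1411 higher, 530 to 909 lower), 0 to 12 differing between genotypes, 9 to 15 fallen in cholesterol synthesis, 5 to 9 in fatty acid synthesis and 2 to 6 risen PPARA targets. Of the 1955 genes called in both, 1168 to 1927 were called again with 1 array left out, and 769 without slide 5. Alternatives for calls in both were added after seeing the data. The cause of these shifts was not tested.

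With the replicate block, 5564 genes were called (2859 higher, 2705 lower), 1735 of them in both, and 0 differed between genotypes. The replicate numbers do not pair the arrays, since same-numbered arrays correlated at -0.11, -0.01 and -0.02. Slide as a random block (correlation 0.105) gave 5592 called and 1759 in both.

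The sign turned for these changes. With the processed signals: Pnpla5 1.45, Acaca 0.01, Cyp4a12b -0.03 and Abcd2 0.24. In the liver channel alone, and with its scaled processed signal where a second value follows: Retsat 1.51 and 0.99, Creb3l3 0.85 and 0.19, Cebpa 1.01 and 0.87, Gys2 0.48 and 0.16, Cyp2e1 2.57 and 2.27, Acaca 0.50 and 1.32, Tdo2 0.63 and 0.18, Ebp -1.98 and -1.38, Acaa2 0.28, Acaa1b 0.48, Fbp1 0.03, Igf1 0.12 and Hal 0.05. Arg1 turned in the scaled signal only, at 0.09. Signal limits the fed arrays: 7170 of the genes tested were well above background on no fed knockout array.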

Other observations

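Many genes changed in the liver channel and in the reference channel alike, and not in the ratio. Liver and reference channel were called in the same direction for 3322 genes, and for 2142 of these the ratio was not called (1316 higher and 826 lower when fasted). Of those 2142, 598 changed at least 2-fold in the liver channel. Igfbp1, an insulin-repressed binding protein of insulin-like growth factors, changed by 4.53 in the liver channel, 3.57 in the reference channel and 0.99 in the ratio (adjusted p = 0.156). Its ratio read 7.09, 7.03, 7.28 and 7.05 fasted and 5.92, 4.8 and 7.65 fed, with the highest value on fed array 3. Serpina3n, an acute phase protease inhibitor, changed by 2.47, 2.40 and -0.15 in that order. Across all 17184 genes the changes of the channels correlated at r = 0.58 (Spearman's rho = 0.57), and across the 668 genes with a mean log2 ratio of at least 4 at r = 0.71 (rho = 0.68). These correlations are across genes that share the same arrays, and genes are not independent replicates.

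Other genes of the liver also fell or rose in both measures. Rgn, regucalcin, an enzyme of vitamin C synthesis, read 8.88, 9.77, 10.14 and 9.9 fasted and 11.56, 11.52 and 10.97 fed (-1.68 ± 0.31). Nudt7, a peroxisomal hydrolase of coenzyme A, read 4.87, 5.7, 6.06 and 5.22 fasted and 7.16, 7.18 and 6.89 fed (-1.61 ± 0.23). Steap4, a metalloreductase of the acute phase list, read 6.09, 6.08, 6.25 and 5.5 fasted and 4.02, 3.58 and 3.24 fed (2.37 ± 0.35). Angptl8, an insulin-induced hormone, read 3.9, 3.95, 3.97 and 3.92 fasted and 4.53, 4.3 and 4.32 fed, a change of -0.45 in the ratio, -2.09 in the liver channel and -1.86 in the reference channel. The reference channel changed by -0.35 for Rgn, -1.26 for Nudt7 and 1.72 for Steap4.

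In the remaining lists the calls in both measures were 2 rises and 2 falls among 23 acute phase genes, 2 rises among 24 cell cycle genes, 2 rises among 22 genes of autophagy and the lysosome, 1 rise and 1 fall among 21 ATF4 targets, 1 rise among 15 growth hormone and IGF genes, 1 rise and 1 fall among 20 pericentral genes, 1 rise and 2 falls among 14 male-biased genes and 2 rises among 11 female-biased genes. The shares called were 17.4%, 8.33%, 9.09%, 9.52%, 6.67%, 10%, 21.4% and 18.2% in that order, beside 11.4% of all genes. Erythroid markers gave 1 rise of 5 (20%). Markers of pancreas and fat gave 0 of 9, beside medians of 0.63 in the knockout ratio and -0.38 in the control ratio.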
